A study of Saccharomyces cerevisiae with 6 samples.

Results

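The vacuolar proton ATPase (V-ATPase) genes of budding yeast were followed through an exposure to paraquat. Of 10 subunit genes chosen by name (VMA1, VMA2, VMA4, VMA5, VMA6, VMA7, VMA8, VMA10, VMA13 and VPH1), 9 had a named probe, and each of these had a value on all 3 arrays. They are 9 of the 5693 features tested. The genes were chosen with earlier results of these data known. No probe was named for VMA10, the gene of the stalk subunit G, so it is not analysed here.

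Exponentially growing cultures of strain S288C in YPD medium at 25 °C received 35 ppm paraquat (methyl viologen), a compound that passes electrons to oxygen and so makes superoxide in cells, for 2 h. Their Cy5-labelled cDNA was hybridised with Cy3-labelled cDNA of cultures grown for 2 h without treatment, on 3 2-colour arrays described as independent biological samples. High and low laser power gave a pair of scans per array, which were averaged and counted as 1 replicate. All arrays carried the treated sample in Cy5, so dye and treatment cannot be told apart.

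The V-ATPase pumps protons into the vacuole, the acidic compartment in which yeast degrades proteins and stores metals, amino acids and polyphosphate. Its peripheral V1 sector hydrolyses ATP, and its membrane V0 sector carries the protons. The sectors separate reversibly when glucose is withdrawn, and cells without the pump are known to be sensitive to metals and to oxidants.

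Values are log ratios of paraquat over untreated, taken as log2 with the treated channel on top. No label or header gives the base or the direction, and if the ratio ran the other way every value below 0 would lie above it. The median of all features was -0.0065, and those of the single scans lay between -0.03 and 0.02. High power scans held values for 5730 to 6006 of 6912 probes and low power scans for 2496 to 4076. Precision was limited by the number of arrays: the standard error of a feature's mean was 0.20 (median, log2).

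All 9 measured genes of the chosen 10 had a mean log2 ratio below 0, but none passed the test. With the 5 other measured subunit genes added, 12 of 14 means were below 0. Because the members were chosen with earlier results of these data known, their count describes the chosen genes and was not tested. Means of the 9 members lay between -0.66 for VPH1 and -0.0067 for VMA5, with a median of -0.20, where 50.8% of all features had a mean below 0. In the limma fit over all features, 0 of 9 members had an adjusted p under 0.05, against 0.0351% of all features (2, both higher). Adjusted p-values of the members in that fit ran between 0.274 and 0.990. At an unadjusted limma p under 0.05, 2 of 9 members were lower, VPH1 and VMA6, against 5.29% of features lower at that level, and 0 were higher.

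**Figure D1:**
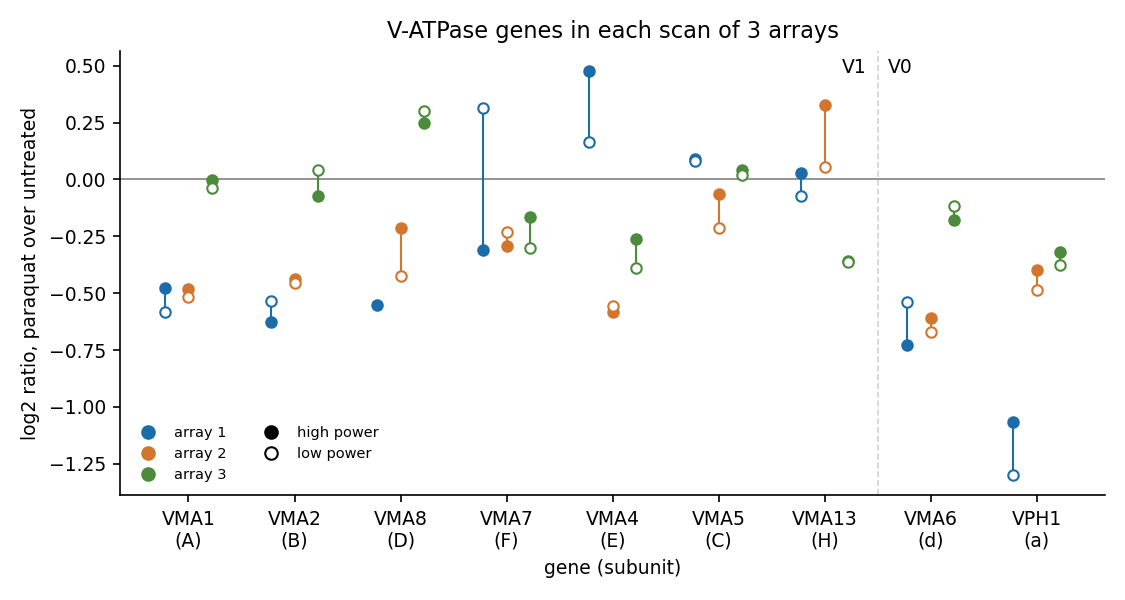
Log2 ratio (vertical axis) of the 9 V-ATPase genes in each scan, with colours for arrays 1 to 3, filled circles for high and open circles for low laser power, a line joining the scans of an array, and subunit letters under the gene names. VPH1 and VMA6 lie below 0 in all 6 scans, VPH1 reaches -1.07 and -1.30 on array 1, and VMA8 has no low power value on array 1.

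The membrane sector was represented by VPH1 and VMA6, which had the lowest means of the 9 genes. VPH1 (YOR270C) encodes the form of the large V0 subunit a that resides in the vacuole, with a domain in the membrane that takes part in proton passage and a domain in the cytosol that contacts V1. On high and low power it read -1.07 and -1.30 on array 1, -0.40 and -0.49 on array 2, and -0.32 and -0.38 on array 3. All 6 values were below 0, and array 1 lay far under the others. The mean was -0.66 ± 0.46 (SD, n = 3 arrays), a ratio of 0.634, with a 95% interval from limma of -1.10 to -0.22 and a limma adjusted p of 0.274. Of all features, 0.826% had a lower mean. Without array 1 the VPH1 mean was -0.40.

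VMA6 (YLR447C) encodes subunit d, which couples the rotor of V0 to the central stalk of V1. It read -0.73 and -0.54 on the high and low power scans of array 1, -0.61 and -0.67 on array 2, and -0.18 and -0.12 on array 3. Arrays 1 and 2 were alike and array 3 was nearer 0. The mean was -0.47 ± 0.28 (SD, n = 3 arrays), a ratio of 0.720, with a 95% interval from limma of -0.89 to -0.057 and a limma adjusted p of 0.399. A lower mean was held by 3.95% of features. The intervals of VPH1 and VMA6 are for single genes and are not adjusted for the number of features tested.

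The catalytic ring of V1 is built from VMA1 and VMA2, whose values were nearly equal on each array. VMA1 (YDL185W) encodes the catalytic subunit A, made as a precursor from which a self-splicing intein is removed. On high and low power it read -0.48 and -0.58 on array 1, -0.48 and -0.52 on array 2, and -0.0035 and -0.038 on array 3. VMA2 (YBR127C) encodes subunit B, which forms the nucleotide-binding ring with subunit A. It read -0.63 and -0.54 on array 1, -0.44 and -0.45 on array 2, and -0.074 and 0.043 on array 3. Both genes were low on arrays 1 and 2 and close to 0 on array 3. VMA1 averaged -0.35 ± 0.29 and VMA2 -0.35 ± 0.30 (SD, n = 3 arrays). Their limma adjusted p-values were 0.555 and 0.556. Their 95% intervals ended at 0.067 and 0.070, so each included 0. Without array 3 both means were -0.51, and without array 1 they were -0.26 for VMA1 and -0.23 for VMA2.

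The central stalk, which turns inside that ring, is formed by VMA8 and VMA7. VMA8 (YEL051W) encodes subunit D, the shaft of the rotor. It read -0.55 on the high power scan of array 1, which had no low power value, -0.21 and -0.42 on array 2, and 0.25 and 0.30 on array 3. The arrays disagreed in sign, and the mean was -0.20 ± 0.43 (SD, n = 3 arrays), with a limma adjusted p of 0.785. Without array 1 the VMA8 mean was -0.022, and without array 3 it was -0.44. The fitted trend over the probe numbers was at 0.29 for the VMA8 probe on average, and with that trend removed the mean was -0.49 (limma adjusted p = 0.503). Probe numbers were taken to stand in for position on the array, which was not checked.

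VMA7 (YGR020C) encodes subunit F of the same stalk. It read -0.31 and 0.32 on the high and low power scans of array 1, -0.29 and -0.23 on array 2, and -0.17 and -0.30 on array 3. On array 1 its scans lay on opposite sides of 0, 0.625 apart, the widest gap between scans among the members. The mean was -0.16 ± 0.15 (SD, n = 3 arrays), with a limma adjusted p of 0.821. On high power scans alone the VMA7 mean was -0.26, with all 3 arrays below 0, and on low power scans alone it was -0.072. It was -0.25 without array 1, -0.12 without array 2 and -0.13 without array 3.

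The peripheral stalks and the regulatory subunits were covered by VMA4, VMA5 and VMA13. VMA4 (YOR332W) encodes subunit E, which pairs with the unmeasured subunit G to hold the ring still. It read 0.48 and 0.16 on array 1, -0.58 and -0.56 on array 2, and -0.26 and -0.39 on array 3. Array 1 alone was above 0, and the mean was -0.19 ± 0.46 (SD, n = 3 arrays), or -0.45 without array 1 and -0.0029 without array 2. The range over arrays, 0.890, was the widest of the 9 genes.

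VMA5 (YKL080W) encodes subunit C, which leaves the complex when the sectors come apart. It read 0.089 and 0.081 on array 1, -0.062 and -0.21 on array 2, and 0.044 and 0.021 on array 3. These values stayed near 0 on every array, with a mean of -0.0067 ± 0.12 (SD, n = 3 arrays) and a 95% interval from limma of -0.41 to 0.40. Its range over arrays, 0.223, was the narrowest of the 9, and its sign turned without array 2 and on high power scans alone. The interval does not show that VMA5 was unaltered.

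VMA13 (YPR036W) encodes subunit H, which activates the assembled pump and silences free V1. It read 0.028 and -0.074 on array 1, 0.33 and 0.055 on array 2, and -0.36 on each scan of array 3. It was the 1 member whose value on array 2 was above 0. The mean was -0.065 ± 0.28 (SD, n = 3 arrays), and it was 0.084 without array 3.

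**Figure D2:**
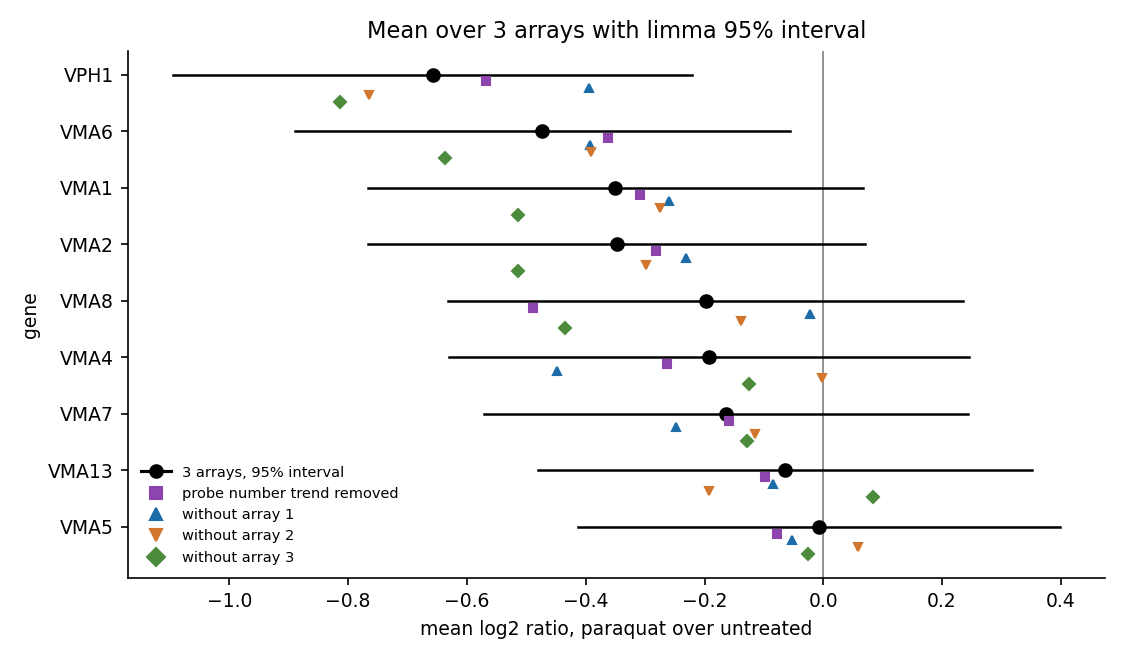
Mean log2 ratio over 3 arrays (horizontal axis) of each V-ATPase gene (vertical axis), as black circles with the 95% interval from limma, beside the mean without each array and with the trend over probe numbers removed (coloured marks). On limma's moderated variance, the intervals of VPH1 and VMA6 end below 0, and those of the other 7 genes include 0.

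Ordered by mean, the genes ran VPH1, VMA6, VMA1, VMA2, VMA8, VMA4, VMA7, VMA13 and VMA5. Each step in this order was smaller than the SD over arrays of the genes on either side of it. A value below 0 on all 3 arrays was found for 4 of 9 members, VPH1, VMA6, VMA1 and VMA2, against 16% of all features. The same held for 4 of 7 vacuolar protease genes and 3 of 5 polyphosphate polymerase genes. A value above 0 on all 3 arrays was found for 0 of 9, against 16% of features. The 2 V0 members had a median of -0.57 and the 7 V1 members of -0.19. With the 5 other measured V0 genes added, the V0 median was -0.075, above that of V1, so the order of the sectors depended on which V0 genes were taken.

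The arrays differed in how low the genes lay. The median of the 9 genes was -0.53 on array 1, -0.44 on array 2 and -0.15 on array 3, where the median of all features was 0.0053, 0.025 and -0.016. The number of members below the lower quartile of all features was 5 on array 1, 7 on array 2 and 3 on array 3. The number above the upper quartile was 1, 0 and 1. By these medians and counts, low member values were more frequent on arrays 1 and 2 than on array 3. The median of the member means, -0.20 over 3 arrays, was -0.44 without array 3, -0.25 without array 1 and -0.19 without array 2. It stayed below 0 with each array left out. The medians of the 9 genes on the 3 arrays had an SD of 0.20. Across the 9 genes, which share arrays and hybridisations, Pearson r was 0.37 between arrays 1 and 2, -0.14 between 1 and 3 and -0.11 between 2 and 3. Over all 5693 features r was 0.164, 0.217 and 0.025 for the same pairs.

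**Figure D3:**
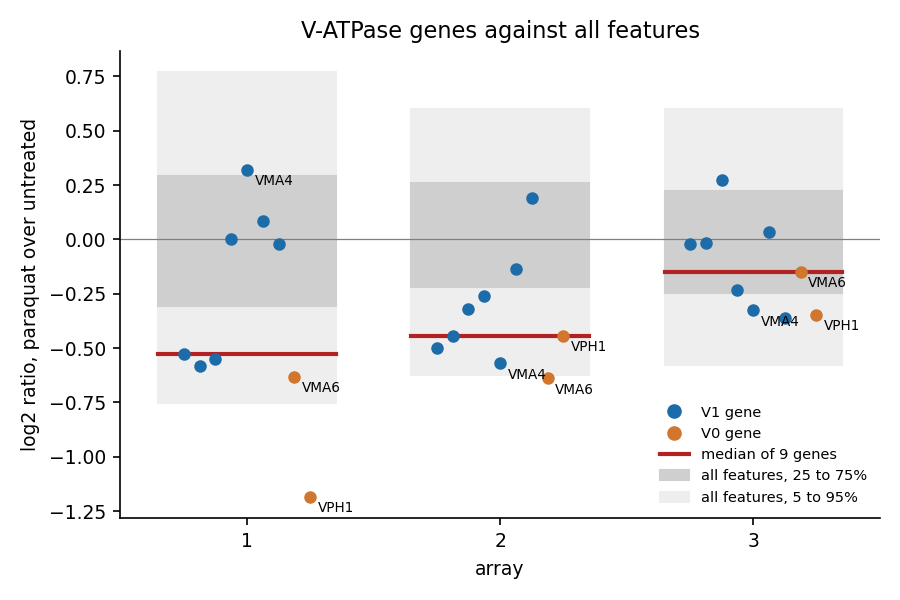
Log2 ratio (vertical axis) of the V-ATPase genes on each array (horizontal axis), with V1 genes in blue and V0 genes in orange, the median of the 9 genes as a red line, and the spread of all features as grey bands. The medians are -0.53, -0.44 and -0.15 on arrays 1 to 3, and VPH1 on array 1 and VMA6 on array 2 lie below the 5 to 95% band.

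Scans of an array mostly gave the same sign for these genes. Of 26 pairs of high and low power values, 23 had the same sign, and the median absolute difference was 0.089, where it was 0.152 over 8801 pairs of all features. The largest was 0.625, for VMA7 on array 1, wider than the range of VMA7 over the arrays, 0.266. These pairs repeat the reading of 1 hybridisation and say nothing about the spread between cultures.

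The trend over the probe numbers held 14.4%, 18.8% and 10.03% of the variance of arrays 1, 2 and 3. With it removed, all 9 member means stayed below 0 and their median was -0.28. VPH1 then averaged -0.57 (limma adjusted p = 0.434) and VMA6 -0.36 (limma adjusted p = 0.612). The number of members with a value below 0 or above 0 on all arrays was 5 in place of 4.

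The other V0 subunits, of which 5 of 6 were measured, had a median of -0.060 and both signs. VMA16 (YHR026W), a proteolipid of the proton-carrying ring, read -0.30, -0.23 and -0.19 on arrays 1, 2 and 3, with a mean of -0.24 ± 0.052 (SD, n = 3 arrays). VMA11 (YPL234C), another proteolipid of the ring, read 0.20, 0.16 and 0.26, with a mean of 0.21 ± 0.052. With scans averaged, VMA16 and VMA11 were the steadiest of the pump genes over the arrays, with opposite signs. Neither passed (limma adjusted p = 0.715 for VMA16 and 0.762 for VMA11). Their scans of an array differed by up to 0.380 for VMA16 and 0.183 for VMA11, wider than their ranges over arrays, 0.104 and 0.102. On high power VMA16 read -0.49, -0.34 and -0.19, and on low power -0.11, -0.13 and -0.19. VMA3, the main proteolipid, averaged -0.075 ± 0.31, with -0.24, -0.28 and 0.29 on arrays 1, 2 and 3. VOA1, a V0 protein also linked to assembly, averaged -0.060 ± 0.13. VMA9, the gene of subunit e, had no named probe and is not analysed here. Over all 14 measured subunit genes, 12 had a mean below 0 and the median was -0.18.

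Yeast has a pair of genes for subunit a, VPH1 for the vacuole and STV1 for the Golgi and endosomes. VPH1 read -1.18, -0.44 and -0.35 on arrays 1, 2 and 3, where STV1 (YMR054W) read -0.037, -0.055 and 0.13. STV1 had no low power value on array 1. VPH1 was lower than STV1 on each of the 3 arrays, by -1.15, -0.39 and -0.48. The mean difference of VPH1 minus STV1 was -0.67 ± 0.41 (SD, n = 3 arrays), with a two-sided exact permutation p of 0.25 by sign changes, the smallest that 3 arrays allow. This pair was singled out because of the known isoforms, with the values of VPH1 in view.

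Assembly and regulation genes were mixed. Of 9 measured, 6 had a mean below 0, 0 passed in either direction, and the median was -0.11. VPH2, VMA21, VMA22 and PKR1 act in the endoplasmic reticulum in the assembly of V0. VPH2 averaged 0.012 ± 0.37, VMA21 0.14 ± 0.26, VMA22 -0.27 ± 0.15 and PKR1 0.049 ± 0.32 (SD, n = 3 arrays). RAV1, RAV2 and SKP1 form the RAVE complex, which rejoins V1 to V0. RAV1 averaged -0.15 ± 0.18, RAV2 -0.11 ± 0.15 and SKP1 -0.056 ± 0.79. SKP1, which also serves ubiquitin ligases, read 0.062, -0.90 and 0.67 on arrays 1, 2 and 3. OXR1 and RTC5, which promote the separation of the sectors, averaged -0.28 ± 0.58 and -0.16 ± 0.36. OXR1 read -0.64, -0.60 and 0.38 on the 3 arrays, with -0.34 and -0.94 on the high and low power scans of array 1.

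**Figure D4:**
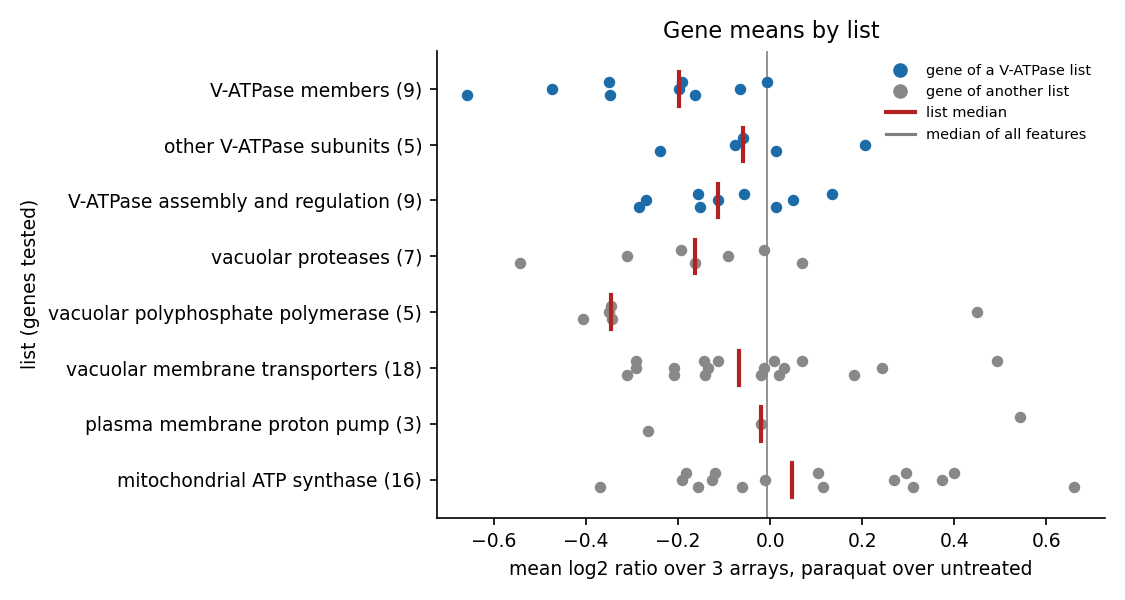
Mean log2 ratio over 3 arrays (horizontal axis) of each tested gene, by list (vertical axis, number of genes tested in brackets), with list medians as red bars and the median of all features as a grey line. The 9 members all lie below 0, and the 16 genes of the mitochondrial ATP synthase spread to both sides, with a median of 0.047.

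The mitochondrial ATP synthase, a related rotary enzyme that runs the other way and makes ATP, had 16 of 17 genes measured on all arrays, 8 with a mean below 0 and 8 above, and a median of 0.047, or 0.113 without array 1, 0.075 without array 2 and 0.027 without array 3. The highest means were 0.66 ± 0.52 for ATP18 and 0.40 ± 0.55 for ATP15, and the lowest -0.37 ± 1.07 for ATP6 and -0.19 ± 0.16 for ATP2 (SD, n = 3 arrays). ATP2 and ATP1 encode the subunits that correspond to VMA1 and VMA2 in the nucleotide-binding ring, and ATP1 averaged -0.18 ± 0.20. None of the 16 passed in the limma fit, and 1, ATP18, was higher at an unadjusted p under 0.05, against 5.48% of all features.

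The plasma membrane proton pump works beside the V-ATPase in setting cytosolic pH. PMA1, its main gene, averaged -0.019 ± 0.28 and had a value in low power scans only, PMA2 averaged -0.27 ± 0.56, and PMP2, a small regulatory proteolipid, 0.54 ± 0.21 (SD, n = 3 arrays). PMP2 read 0.78, 0.48 and 0.37 on arrays 1, 2 and 3, above 0 on each, with a limma adjusted p of 0.310. PMA1 and PMA2 are similar in sequence, so their probes may not read them separately. PMP1 had no named probe and is not analysed here.

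Other vacuolar genes had medians below 0 with a wide spread. Of 7 measured vacuolar protease genes, 6 had a mean below 0, with a median of -0.16. They ran from -0.54 ± 0.42 for APE3 and -0.31 ± 0.13 for the carboxypeptidase Y gene PRC1 to -0.013 ± 0.37 for the proteinase A gene PEP4 and 0.069 ± 0.44 for CPS1. Of 5 genes of the polyphosphate polymerase of the vacuole, 4 had a mean below 0, with a median of -0.35, or -0.056 without array 2. VTC4, the catalytic subunit, averaged -0.41 ± 0.13 and VTC2 -0.35 ± 0.21, VTC3 was at -0.35 and VTC5 at -0.34, while VTC1 averaged 0.45 ± 0.45. Of 18 vacuolar membrane transporters, 11 had a mean below 0, with a median of -0.067, which was 0.052 without array 1. The highest were COT1, a zinc and cobalt transporter, at 0.49 ± 0.24 and VBA2 at 0.24 ± 0.076, and the lowest the iron transporter CCC1 at -0.31 ± 0.35 and the calcium pump PMC1 at -0.29 ± 0.33. No gene of these lists passed in either direction. At an unadjusted limma p under 0.05, APE3 and VTC4 were lower and COT1 and VTC1 higher, as was PMP2 among the plasma membrane pump genes.

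The genes whose 3 array values lay nearest to the median profile of the members (-0.53, -0.44 and -0.15) were taken from all named features outside the lists. By Euclidean distance they were DPS1 at 0.046, PXA1 at 0.053, YIP5 at 0.058, SEC59 at 0.080 and RPS1B at 0.090. They encode an aspartyl-tRNA synthetase, a peroxisomal fatty acid transporter subunit, a protein that binds Rab GTPases, dolichol kinase and a small ribosomal subunit protein. By the same distance VMA1, VMA2 and VMA6 ranked 18, 21 and 72 of 5218 named features. VMA8 ranked 512, and the remaining members lay between 1004 (VMA7) and 2697 (VMA4), with VPH1 at 1585. The median profile thus does not describe most of the members. A distance over 3 arrays is a description of these arrays.

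The members lie on different chromosomes except VMA4 and VPH1, which are both on chromosome XV. Of the 20 genes that lie directly beside the 10 member genes in assembly R64, 17 were tested, 9 had a mean below 0, and the median was -0.11. The neighbours of VPH1 were PAC1 at 0.46 and FSF1 at 0.18, both above 0, and the tested neighbour of VMA13, GLN1, was at -0.66.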

How the data were processed

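The deposited values, taken as log2 ratios, had been LOWESS normalized by the authors over spots with flag 0, and each array was scanned at 2 laser powers, per the labels' descriptions. Their merged column was not used. Background correction is not given in the sources used here. Single intensities were not used, so signal over background was not examined.

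The platform annotation paired 5513 of 6912 probes with 1 symbol, 0 with several and 1399 with none. RefSeq assembly R64 gave current names for 5508 through their gene identifiers, and was otherwise used only for chromosomes and neighbours. Probes with identical values in all scans were joined (78 sets), 761 probes without a value were left out, and 5693 features measured on every one of the 3 arrays were tested. The scans of an array were averaged. limma 3.58.1 in R 4.3.3 tested the mean against 0 (lmFit and eBayes, two-sided, 2 residual and 19.1 prior degrees of freedom, Benjamini-Hochberg over all features, threshold 0.05). It was tried on simulated data of these 5693 features, of which 200 were changed, with normal noise drawn independently for each feature. The noise had the moderated SD of each feature, which varies less between features than the observed SD. In these simulated data limma recovered 5.03% of changes of 0.5 on the log2 scale, 94.3% of 1 and 99.95% of 1.5. False calls per run were 0.8, 8.5 and 8.85. The Benjamini-Hochberg cutoff loosens as more features change, and only 2 were called in the data, so recovery there may be lower.

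Members and gene lists were chosen with earlier results of these data known, so no list was tested or adjusted alone. Named were all members, all genes of the pump, assembly and plasma membrane pump lists, the 2 highest and 2 lowest means of the other lists, and the 5 genes nearest to the members' median profile. ATP1, VTC3 and the chromosomal neighbours were named beyond that rule, with values in view. Alternatives were single scans, low power values filling gaps, centring, scaling, filters on missing values, other variance estimates, a test against 1.2-fold, removal of a trend fitted additively to the probe number's digit fields (8, 24, 6 and 6 levels), probes kept apart, and leaving out each array.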

Additional observations from a re-analysis of the deposited data

How the results depend on the processing

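Under 15 alternatives, 0 of the 9 V-ATPase genes passed the limma threshold, with a smallest adjusted p of 0.0876 (VPH1, on features with a value in all 6 scans, where 19 of 1794, or 1.06%, were called). Over all features, 69 were called without array 2, 8 without array 3, 0 without array 1 and 18 of 1978 on low power scans alone, so the background also moved. Of 9 member means, 7 stayed below 0 under every alternative that gave a value. VMA5 turned to 0.024 on high power scans alone and with low power values filling gaps, and ran from -0.053 to 0.059 when 1 array was left out. VMA13 ran from -0.19 to 0.084 likewise. VMA8 had no value on low power scans alone or among features with all 6 scans. VPH1 lay between -0.81 and -0.40. The number of members with a single sign on all 3 arrays was 4 or 5 under the settings that kept 9 members and 3 arrays, 3 of 8 on low power scans alone and 4 of 8 on features with all 6 scans. It was 5 or 6 with 1 array left out, where 2 signs have to match in place of 3. When 1 array was left out, the member median ran from -0.44 to -0.19, that of the transporters from -0.12 to 0.052, that of the polyphosphate genes from -0.40 to -0.056 and that of the ATP synthase from 0.027 to 0.113. The last was 0.184 on low power scans alone and 0.187 on features with all 6 scans, where fewer genes had a value. The cause of these differences between settings was not tested. Each value is a ratio of treated over untreated within an array, so the test of the mean against 0 already used that pairing. With 1 group, no further comparison between groups was possible. With 3 arrays, a change of 0.5 on the log2 scale would mostly go uncalled.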
